A study of Drosophila melanogaster with 21 samples.

Results

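DL1 is a Drosophila melanogaster cell line with hemocyte (blood cell) features, grown in SDM medium per the labels. The comparison is between clone 1 and clone 2, which are clonal isolates of DL1 that carry a knockout of pum, the gene of the RNA-binding protein Pumilio. Each clone is represented by 3 samples, so 6 of the 21 samples of the series enter the comparison, and the 3 samples of the parental wild-type (WT) line give the level beside each gene. The labels give no treatment for these 9 samples, and the other 12 samples, an RNA interference experiment, were not used. The labels call the 3 samples of a group biological replicates, but those of a clone come from 1 isolate, so their spread holds no difference between isolates of the same genotype. With 1 isolate on each side, a difference that belongs to the isolate and one that belongs to its pum allele cannot be told apart. The sources used here do not say which part of pum was removed in either clone. RNA was poly(A)-selected and sequenced by ClickSeq, which ends cDNAs at azido-nucleotides and attaches the sequencing adapter to them by a click reaction. All 17555 genes with a FlyBase gene ID in the knockout table were considered, and 12248 had values that allowed a test between the clones.

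Pumilio binds short elements in the 3' untranslated regions of mRNAs and represses them, in part through the CCR4-NOT complex that shortens poly(A) tails. It is known in Drosophila for its part in embryonic patterning, in germline stem cells and in neurons. Drosophila hemocytes comprise phagocytic plasmatocytes, crystal cells that carry the melanization enzymes, and lamellocytes that wrap foreign bodies.

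The values are normalized counts, that is, reads divided by a size factor of the library. The authors deposited them as a mean per group, and the whole-number reads of each library could be recovered from those means. Depth over all genes, estimated from the recovered reads, was 5896271 to 8415450 reads in the WT libraries, 8841068 to 13741087 in those of clone 1 and 8202673 to 9890319 in those of clone 2. Libraries are called A, B and C within a group, letters that are not tied to the replicate numbers of the labels. Libraries of a group correlated at 0.992 to 0.996 across 6221 genes, which are not independent replicates. Levels set beside each other below are of the same gene, since values of different genes were not scaled to length. The exceptions are the summed levels of marker lists, which add such unscaled values of different genes. A log2 difference is the authors' fitted log2 fold change of clone 1 against WT minus that of clone 2, given with its standard error. It is positive where clone 1 is higher, and a gene is called where a two-sided Wald test of it gives a Benjamini-Hochberg adjusted p below 0.05.

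The targeted gene was read first. pum (dm6, chromosome arm 3R, 9066343 to 9237682, minus strand) held 3129, 3139 and 2820.4 normalized counts in the WT libraries. Clone 1 held 1064, 969 and 1074 and clone 2 held 2186, 2087 and 2093. Transcripts counted as pum were thus lower than WT in every library of both clones, and clone 1 was lower than clone 2 in all 3 against all 3 libraries. The log2 difference was -1.04 ± 0.07 (adjusted p = 4.67e-44), a level in clone 1 of 34.2% of WT against 70.0% in clone 2. Reads from outside the removed part are still counted as pum, so these levels are not a measure of the protein. Not1, the scaffold of CCR4-NOT, had means of 18887, 18844 and 19010.0 in WT, clone 1 and clone 2 with a log2 difference of -0.01 ± 0.07 (adjusted p = 0.98). Pop2, a deadenylase of that complex, had 770.2, 1142 and 1218 and a log2 difference of -0.09 ± 0.08 (adjusted p = 0.7). Of 10 CCR4-NOT subunits, 2 were called, Rga at 0.25 ± 0.07 and Cnot4 at 0.20 ± 0.07, both higher in clone 1, which is near the 20.4% called among all genes with a mean of at least 50. A list of mRNAs reported earlier as Pumilio targets had 14 tested genes, 11 of them with a mean of at least 50. Of the 14, 28.6% were called, beside 12.1% over all genes tested and 20.4% at that level. The median log2 difference of the list was -0.03, against -0.05 over all genes tested. Its calls were 3 genes higher in clone 2 and 1, CycB, a mitotic cyclin, higher in clone 1 (0.25 ± 0.09). One of the 3, hb, was no longer called when its error was raised to the counting error of its reads. The smallest p among the 14 was that of Egfr, the EGF receptor, with means of 393, 588 and 891 in WT, clone 1 and clone 2 (log2 difference -0.60 ± 0.09).

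Between the clones, 1483 genes, or 12.1% of the 12248 tested, were called. Of these, 688 genes (5.62% of those tested) were higher in clone 1 and 795 (6.49%) were higher in clone 2. Most of the differences were small, with a median absolute log2 difference of 0.47 over called genes. Among the 361 called genes with a difference of at least 2-fold (2.95%) the directions were unequal, with 49 (0.4%) higher in clone 1 and 312 (2.55%) higher in clone 2. At 16-fold or more, 12 genes were higher in clone 1 and 41 in clone 2. Over all genes tested the median log2 difference was -0.05, and over the 6381 genes with a mean of at least 50 over the 3 groups it was 0.03, with 1303 of them (20.4%) called. The 3 libraries of clone 1 did not overlap with the 3 of clone 2 in 2610 of 6233 resolved genes with a mean of at least 50 in the higher clone (41.9%). Counted by kind, 1418 of 10684 protein-coding genes and 47 of 1102 non-coding RNA genes were called. When the variance of the shared WT libraries was left in the error, 686 genes were called, 272 of them at least 2-fold.

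**Figure D1:**
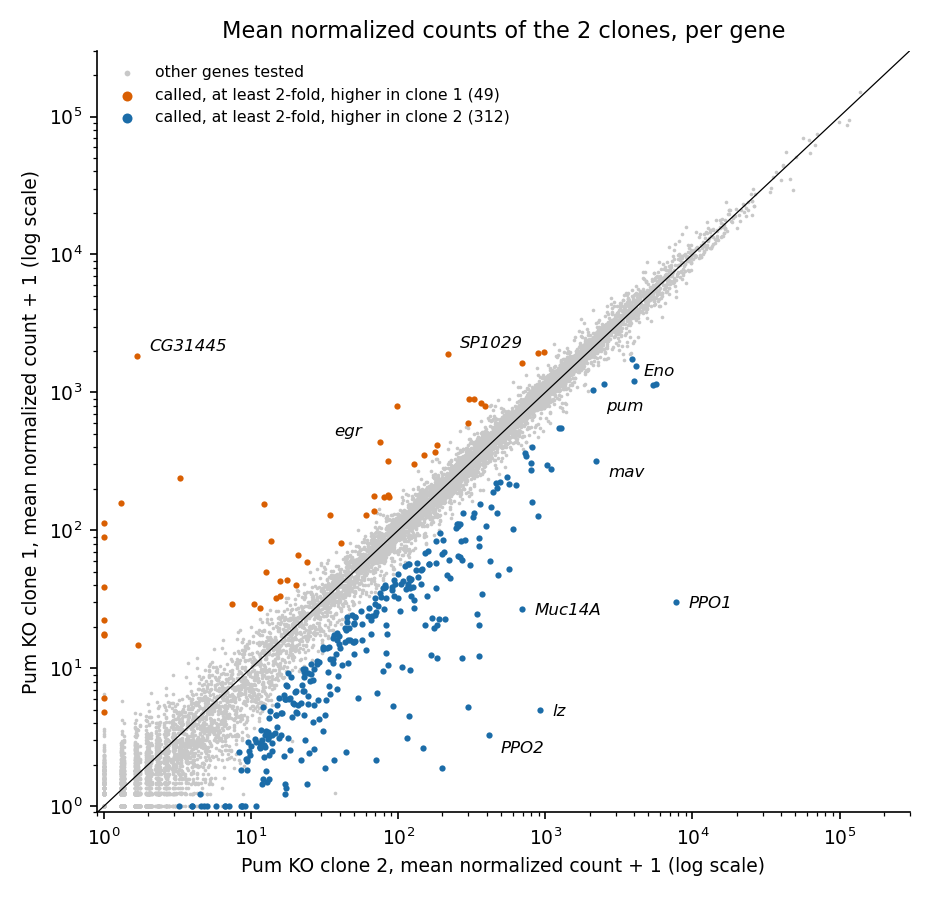
Each point is 1 of the 12248 genes tested, with its mean normalized count plus 1 in clone 2 on the x axis and in clone 1 on the y axis, both on a log scale, and the line marks equal values. The 312 genes called at least 2-fold higher in clone 2 (blue) lie below the line and the 49 higher in clone 1 (orange) above it, with PPO1 and CG31445 farthest out.

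Genes known from crystal cells were among those with the largest differences, and those described here were high in clone 2. lz (chromosome X, 9284649 to 9303636, plus strand), the RUNX transcription factor that crystal cells need, held 9.68, 14.3 and 7.38 normalized counts in WT and 7.33, 1.52 and 3.20 in clone 1. In clone 2 it held 939.9, 973 and 843, so that every library of clone 2 lay far above all others, and every library of clone 1 lay below those of WT. The log2 difference was -7.76 ± 0.42 (adjusted p = 2.49e-74). PPO1 (2R, 17887220 to 17889973, minus strand), a prophenoloxidase that crystal cells store for melanization, had no read in any WT library. It held 79.3, 1.52 and 7.46 normalized counts in the libraries of clone 1 and 8491, 7478 and 7142 in those of clone 2. The log2 difference was -8.03 ± 2.64 (adjusted p = 0.0234), a fitted value that depends on the fit of a gene with no WT read, and the authors' deposited table gives no adjusted p for it in either clone. Library A carried most of the PPO1 reads of clone 1, at 1.03% of the clone 2 mean, and without that library the clone 1 mean was 4.49. PPO2 (2R, 9042261 to 9044709, minus strand), the other crystal-cell prophenoloxidase, held 1.08, 1.10 and 1.48 in WT, 3.999, 0.760 and 2.13 in clone 1 and 442, 394 and 394 in clone 2. Its log2 difference was -7.42 ± 0.64 (adjusted p = 7.57e-29), and WT and clone 1 were both near 0. peb (X, 4617564 to 4627206, plus strand), a zinc-finger transcription factor that also acts in crystal cells, held 41.9, 43.9 and 25.1 in WT, 3.33, 0.760 and 8.52 in clone 1 and 325, 279 and 281 in clone 2. It was thus below every WT library in clone 1 and above every one in clone 2 (-6.30 ± 0.43, adjusted p = 3.82e-46). PPO3, the prophenoloxidase of lamellocytes, behaved otherwise, with 177, 175 and 173 in WT, 34.7, 31.2 and 29.8 in clone 1 and 38.1, 50.6 and 39.4 in clone 2. It fell below WT in both clones per the authors' deposited table (adjusted p = 3.18e-30 and 1.29e-21) and was not called between them (-0.41 ± 0.24, adjusted p = 0.37). In these bulk samples, more cells of a kind and more RNA per cell cannot be told apart.

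Of the 22 hemocyte markers tested, 11 were higher in clone 2, 8 of them at least 2-fold, and 1 was higher in clone 1. Over all genes tested, 6.49% were higher in clone 2, 2.55% at least 2-fold, and 5.62% were higher in clone 1. The median log2 difference over the 22 was -0.84, against -0.05 over all genes tested, and was -0.36 from ratios of means with a pseudocount of 10. Hml (3L, 13846054 to 13860001, plus strand), the clotting factor hemolectin of plasmatocytes, held 799, 853 and 629.9 in WT, 86.6, 66.2 and 53.3 in clone 1 and 209, 182 and 216 in clone 2, an ordering of WT above clone 2 above clone 1 without overlap (-1.53 ± 0.17, adjusted p = 4.42e-18). NimC1, a phagocytosis receptor, was low everywhere, with 18.3, 15.4 and 23.6 in WT, 1.33, 2.28 and 2.13 in clone 1 and 8.36, 7.79 and 13.5 in clone 2 (-2.38 ± 0.75, adjusted p = 0.0165). NimB5, a secreted member of the same Nimrod family, had means of 303, 37.96 and 79.7 in WT, clone 1 and clone 2 (-1.06 ± 0.21). Pxn, a peroxidase of the extracellular matrix, had means of 104, 46.5 and 74.4 (-0.70 ± 0.23), so that NimB5 and Pxn were ordered as Hml was. Sr-CI, a scavenger receptor, had means of 18.5, 6.41 and 32.6 (-2.35 ± 0.46), and by the authors' deposited table it was lower than WT in clone 1 (adjusted p = 0.00271) and not called in clone 2 (adjusted p = 0.0661). The collagen IV chains were ordered in another way, above WT in both clones and highest in clone 2. Col4a1 held 79.6, 59.2 and 63.4 in WT, 173, 182 and 209.8 in clone 1 and 424, 405 and 493 in clone 2 (-1.23 ± 0.14, adjusted p = 1.14e-16). vkg, the partner chain, had means of 28.9, 196 and 377 (-0.94 ± 0.14). The marker higher in clone 1 was srp, the GATA factor of blood cells, at 4904, 6898 and 6012 (0.20 ± 0.07, adjusted p = 0.045). The receptor genes eater and crq were not called, at 0.15 ± 0.08 and 0.03 ± 0.10, although crq, with means of 1419.5, 313 and 306, was below WT in both clones by the authors' deposited table (adjusted p = 7.59e-118 and 5.33e-115). With the WT variance kept in the error, 8 of the 22 markers were called. All of the 22 markers but PPO1 had reads in WT, some only a trace, such as PPO2 with a WT mean of 1.22. The presence of reads alone is therefore no check of the hemocyte label. The summed level of the 22 markers was 13771 in WT, 13548 in clone 1 and 22539 in clone 2, and PPO1 alone gave 7704 of the last. Some markers of other cell types had reads too, and their part in the differences was not tested. The summed level of neuronal markers was 5437, 7663 and 6834 in WT, clone 1 and clone 2, and that of muscle markers 9542, 8996 and 8263. These sums rest on few members. Only 5 of 18 neuronal and 2 of 17 muscle markers tested had a mean of at least 50. Syx1A (3774) and elav (1082) gave most of the neuronal sum in WT, whereas brp and Syt1 had WT means of 3.13 and 2.20.

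**Figure D2:**
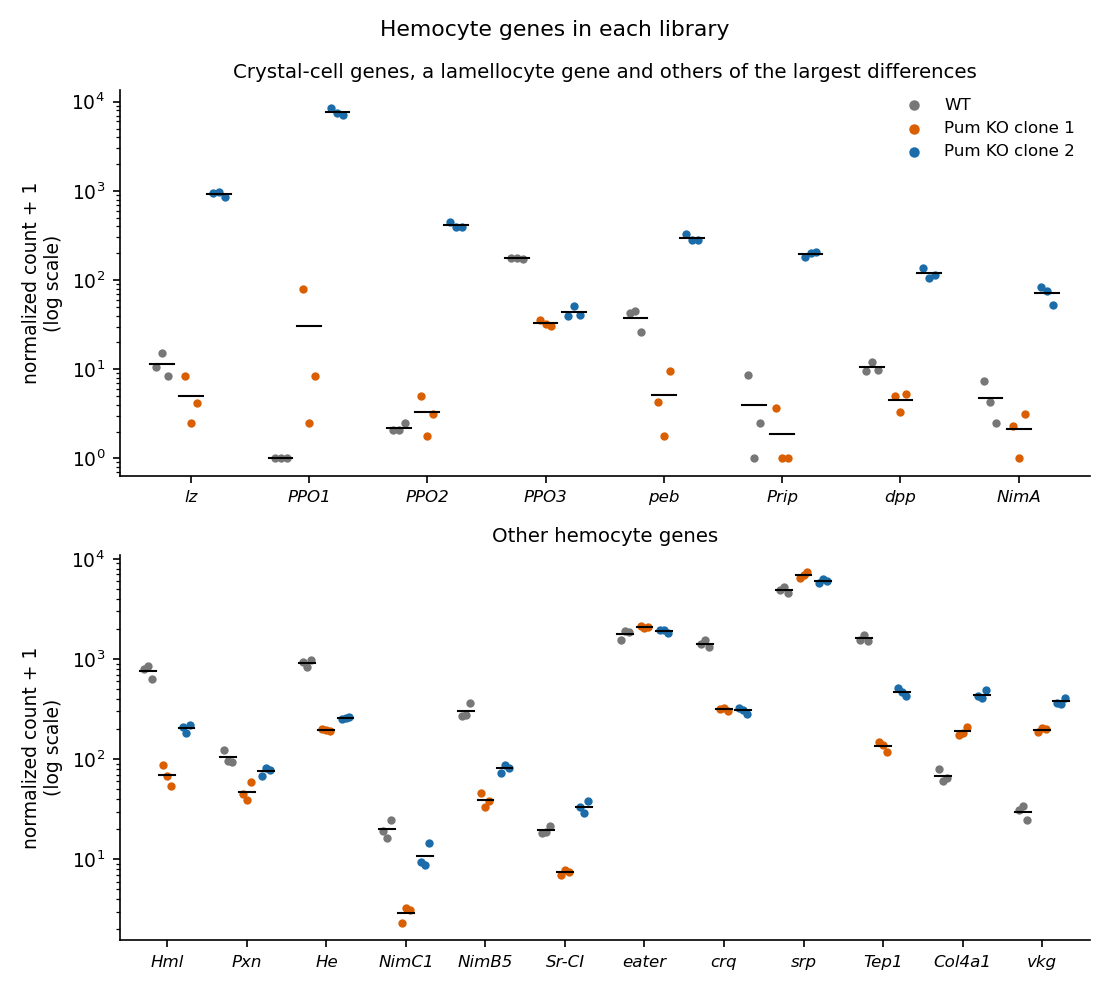
Points are normalized counts plus 1 in single libraries on a log scale, bars are the means of 3 libraries, and gray, orange and blue stand for WT, clone 1 and clone 2. lz, PPO1, PPO2 and peb are high in the 3 libraries of clone 2 and low in the others, whereas PPO3 is near the same level in both clones and Hml lies in the order WT, clone 2, clone 1.

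Of the 26 phagocytic receptor and opsonin genes tested, a list that shares members with the hemocyte markers, 7 were higher in clone 2 and 2 in clone 1, beside 12.1% called over all genes tested and 20.4% at a mean of at least 50. Tep1, a thioester protein that binds microbes, held 1553, 1752 and 1500.2 in WT, 146, 137 and 117 in clone 1 and 509.9, 468 and 429 in clone 2 (-1.80 ± 0.12, adjusted p = 6.23e-51). Tep4, of the same family, had means of 7089, 3279 and 5191 in WT, clone 1 and clone 2 (-0.66 ± 0.07). NimA, a Nimrod-family receptor, held 6.45, 3.29 and 1.48 in WT, 1.33, 0 and 2.13 in clone 1 and 83.6, 74.00 and 51.8 in clone 2, so that it was close to off outside clone 2 (-6.03 ± 0.83, adjusted p = 1.56e-11). In the other direction, PGRP-LC, the peptidoglycan receptor at the head of the Imd pathway, had means of 3151, 4255 and 2949 and was higher in clone 1 (0.53 ± 0.08). Among 28 genes of antimicrobial peptides and peptidoglycan sensing, 7 were higher in clone 2 and 4 in clone 1, beside the same shares over all genes. pirk, an inhibitor of the Imd pathway, had means of 107, 63.7 and 255 in WT, clone 1 and clone 2 (-2.02 ± 0.18). GNBP3, a sensor of fungal glucans, had means of 349, 82.3 and 268 (-1.70 ± 0.17).

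Other genes with the largest differences towards clone 2 included some above WT in clone 2 and some near 0 in clone 1 alone. dpp (2L, 2428372 to 2459823, plus strand), a BMP ligand, was of the first kind, with 8.60, 10.97 and 8.85 normalized counts in WT, 3.999, 2.28 and 4.26 in clone 1 and 136, 103 and 114 in clone 2 (-5.08 ± 0.49, adjusted p = 8.37e-23). Prip, an aquaporin, had 8 reads in the 3 WT libraries and 4 in those of clone 1 against 585 in those of clone 2 (adjusted p = 1.10e-06). toc, which encodes a microtubule-associated protein, held 83.9, 109 and 84.1 in WT, 20.7, 15.97 and 22.4 in clone 1 and 360.4, 387 and 319.7 in clone 2 (-4.19 ± 0.23). Muc14A, a mucin gene, was of the second kind, with 2135, 2523 and 1906 in WT, 32.7, 19.8 and 25.6 in clone 1 and 718, 653 and 697 in clone 2. That is 1.19% of WT in clone 1 and 31.5% in clone 2 (-4.71 ± 0.19, adjusted p = 3.82e-139). l(2)41Ab held 356, 463 and 453 in WT, 2.67, 1.52 and 2.13 in clone 1 and 119.8, 103 and 116 in clone 2 (-5.73 ± 0.55). Ac3, an adenylate cyclase, held 722, 786 and 792 in WT, 14.7, 12.9 and 6.39 in clone 1 and 391, 344 and 324 in clone 2 (-4.89 ± 0.25). tsh, a zinc-finger transcription factor of trunk patterning, held 2916, 3462 and 2837 in WT, 39.99, 14.4 and 17.04 in clone 1 and 367, 346 and 308 in clone 2 (-3.81 ± 0.34). That is 0.776% of WT in clone 1 and 11.1% in clone 2.

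The symbol-bearing genes with the largest differences towards clone 1 included SP1029, futsch, otk, egr, thw, side-IV, Mmp2, gukh, CadN, GluRIIA and uzip, with log2 differences from 3.13 ± 0.12 down to 1.24 ± 0.07. SP1029, an aminopeptidase gene, held 119, 82.2 and 87.03 in WT, 1957, 2081 and 1633 in clone 1 and 232, 203 and 215 in clone 2 (adjusted p = 8.43e-141). futsch (X, 1409069 to 1453686, plus strand), which encodes a microtubule-associated protein of neurons, held 136, 154 and 125 in WT, 732, 811 and 826 in clone 1 and 93.8, 93.5 and 104 in clone 2. Every library was above WT in clone 1 and below WT in clone 2 (3.03 ± 0.13, adjusted p = 6.11e-113). egr (2R, 10078366 to 10084210, plus strand), the TNF ligand Eiger, held 154, 135 and 136 in WT, 437, 477 and 383 in clone 1 and 61.3, 83.7 and 76.6 in clone 2, again with clone 1 above and clone 2 below WT (2.56 ± 0.16, adjusted p = 4.06e-56). otk, a receptor-like protein, held 3.23, 2.19 and 0 in WT, 67.98, 96.6 and 83.1 in clone 1 and 9.29, 10.7 and 18.01 in clone 2 (2.72 ± 0.40). It rests on 5 reads in WT, and its adjusted p of 6.45e-10 became 0.105 when the WT variance was kept in the error. CadN, the N-cadherin gene, had means of 536, 901 and 328 in WT, clone 1 and clone 2 (1.46 ± 0.10). side-IV, an immunoglobulin-domain protein, had means of 24.6, 317 and 84.4 (1.91 ± 0.19). Mmp2, a matrix metalloproteinase, had means of 87.2, 64.9 and 19.9 (1.69 ± 0.28). GluRIIA, a glutamate receptor subunit, had 88.4, 58.3 and 22.8 (1.34 ± 0.28). For both the mean of clone 1 lay under that of WT and that of clone 2 lay lower still. uzip had 1410.3, 1634 and 693, gukh 450.4, 889 and 299.7 (1.57 ± 0.11) and thw 269.9, 127 and 33.2 (1.93 ± 0.20). uzip and gukh were highest in clone 1, whereas thw was highest in WT.

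A stricter rule picked genes with a mean of at most 5 normalized counts in 1 clone and at least 50 in the other. It was met by 14 genes, 5 high in clone 1 and 9 high in clone 2. Those of clone 1 were CG31445, CR31427, CG11951, CG46026 and CG15772. CG31445 held 12.9, 1.10 and 11.8 in WT, 1909, 1929.8 and 1708 in clone 1 and 2 reads in all 3 libraries of clone 2 together. CG46026 had no read in WT, 570 reads in clone 1 and 1 in clone 2, and CG15772 had 8, 898 and 7 (adjusted p = 4.18e-04 and 4.56e-26). Those of clone 2 were lz, PPO2, peb, Prip, NimA, dpp, l(2)41Ab, CG31999 and lncRNA:CR44811. CG31999 and l(2)41Ab were expressed in WT, at means of 678 and 424, whereas lncRNA:CR44811 had a mean of 0.983 in WT, 1.65 in clone 1 and 147 in clone 2. The clone with the low level still held a trace of most of these genes. For the 9, the medians in clone 1 libraries A, B and C were 1.36%, 0.257% and 1.81% of the clone 2 mean.

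Set against WT, the clones differed in how far they stood from it. The placement uses the adjusted p-values of the authors' deposited table, which call 4920 of 10156 genes (48.4%) in clone 1 against WT and 4451 of 9925 (44.8%) in clone 2. These comparisons share the WT libraries. Of the 312 genes at least 2-fold higher in clone 2, 148 were lower than WT in both clones by the authors' deposited table, and 75 were lower in clone 1 alone. Another 42 were higher than WT in clone 2 alone, 20 were lower in clone 1 and higher in clone 2, 14 were higher in both and 13 were called in neither. Genes with no adjusted p in the authors' deposited table were counted as not called against WT, so PPO1 is among the 13. The same holds for the counts that follow. Of the 49 genes at least 2-fold higher in clone 1, the authors' deposited table gives 17 as higher than WT in clone 1 alone, 13 as higher in clone 1 and lower in clone 2, 9 as lower in both, 5 as lower in clone 2 alone, 3 as higher in both and 2 as neither. By the fitted log2 fold changes of the authors' deposited table, clone 2 was nearer to WT in 277 of the 361 genes and clone 1 in 84. Over all 1483 called genes the split was 1042 and 441. mav, a ligand of the TGF-beta family, is an example of a gene near WT in clone 2 and low in clone 1, with 2006, 2347 and 2214 in WT, 357, 252 and 350.4 in clone 1 and 2276, 2232 and 2116 in clone 2 (-2.79 ± 0.11, adjusted p = 1.26e-150).

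**Figure D3:**
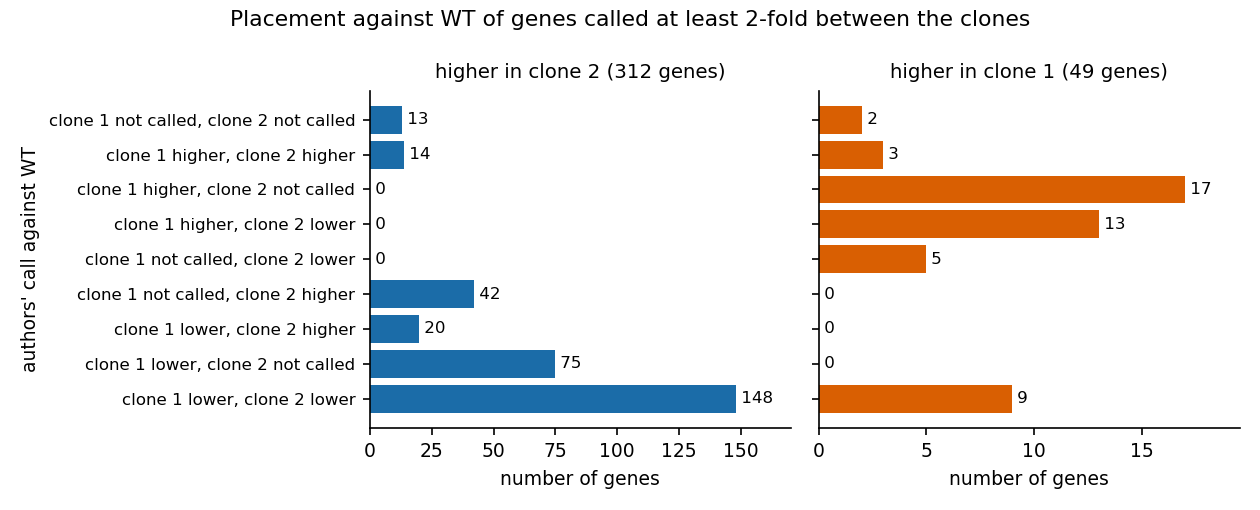
Bars count the genes called at least 2-fold between the clones by the authors' call of each clone against WT (adjusted p below 0.05), for the 312 genes higher in clone 2 (left) and the 49 higher in clone 1 (right), with separate x scales. The longest bar on the left is the 148 genes lower than WT in both clones, and on the right the 17 genes higher than WT in clone 1 alone.

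Transcripts of glycolytic enzymes were lower in clone 1 than in clone 2. All 13 glycolysis and lactate dehydrogenase genes tested were higher in clone 2, with a median log2 difference of -0.45 against -0.05 over all genes tested and 0.03 over those with a mean of at least 50, and against 20.4% of genes called at that level. Eno (2L, 1724768 to 1729636, minus strand), the enolase gene, held 3305, 2984 and 3182 in WT, 1739.5, 1562 and 1890.5 in clone 1 and 3965, 3819 and 3774 in clone 2, so that clone 1 was below and clone 2 above WT in every library (-1.16 ± 0.08, adjusted p = 6.23e-51). Pfk, the phosphofructokinase that commits sugar to glycolysis, held 1561, 1573 and 1577 in WT, 746, 722 and 729 in clone 1 and 1223, 1335 and 1394 in clone 2 (-0.85 ± 0.08, adjusted p = 3.45e-27). Gapdh2 had means of 7967, 4435 and 6492 in WT, clone 1 and clone 2 (-0.55 ± 0.06). PyK, the pyruvate kinase gene, had 4260.3, 2129 and 2899.5 (-0.45 ± 0.06). Ldh, which turns pyruvate into lactate, was below WT in both clones, at means of 2719, 401 and 817 (-1.03 ± 0.21). The smallest difference of the list was that of Pfrx, at -0.26 ± 0.09 (adjusted p = 0.0328). Against WT, the authors' deposited table calls 12 of the 13 lower in clone 1 and none higher, and 6 lower and 2 higher in clone 2. With the WT variance kept in the error, 10 of the 13 were called.

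Cytosolic ribosomal protein genes differed little, and those called were higher in clone 2. Of 85 tested, 34 were higher in clone 2 and 0 in clone 1, and the median log2 difference was -0.21. Of the 85, 82 had a mean of at least 50, a level at which 20.4% of all genes were called, with a median of 0.03. RpS6, of the small subunit, had means of 12757, 13565 and 16056 in WT, clone 1 and clone 2 (-0.24 ± 0.05, adjusted p = 1.26e-05). RpL19, of the large subunit, had means of 3930.3, 4405 and 5567 (-0.34 ± 0.07). The one member past 2-fold was RpS5b, the low-level paralog of RpS5a, with 30.1, 16.4 and 32.5 in WT, 2.67, 6.08 and 1.07 in clone 1 and 34.4, 26.3 and 23.6 in clone 2 (-3.04 ± 0.57), which may share reads with its paralog. With the WT variance kept in the error 6 of the 85 were called. limma on the recovered reads called 28, or 9 without clone 2 library C, 18 without clone 2 library B, 19 without clone 1 library A and 20 without clone 1 library B. None of 72 mitochondrial ribosomal protein genes was called by the Wald test, the smallest adjusted p being that of mRpL18 (0.29 ± 0.12, adjusted p = 0.101).

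Genes of cell division differed by small amounts, and most of those called were higher in clone 1. Of 21 DNA replication and nucleotide supply genes, 9 were higher in clone 1 and 1 in clone 2 (median 0.27), and of 30 cell-cycle genes 9 were higher in clone 1 and 1 in clone 2 (median 0.17). Over all genes with a mean of at least 50, 20.4% were called and the median was 0.03. stg, the Cdc25 phosphatase that starts mitosis, held 2956, 2840.4 and 2578 in WT, 4701, 4418 and 5082 in clone 1 and 3488, 3532 and 3954 in clone 2 (0.37 ± 0.08, adjusted p = 3.06e-05). Cdk2, a kinase of S-phase entry, had means of 232, 752 and 519 in WT, clone 1 and clone 2 (0.54 ± 0.10). polo, a mitotic kinase, had 1729.8, 2382 and 1913 (0.32 ± 0.07), and pav, a kinesin of cell division, 2042, 4373 and 3539 (0.30 ± 0.07), all highest in clone 1. Orc6, of the origin recognition complex, had 321, 323 and 227 (0.51 ± 0.14). Ts, thymidylate synthase, had 139.9, 241 and 171 (0.50 ± 0.14). The members called higher in clone 2 were CycG, a cyclin, at means of 7418, 4636 and 5459 (-0.24 ± 0.07, adjusted p = 0.0161), and RnrS, the small subunit of ribonucleotide reductase, at 891, 967 and 1411 (-0.55 ± 0.09, adjusted p = 5.61e-08). Of 16 ribosome biogenesis genes 5 were higher in clone 1 and 0 in clone 2 (median 0.15), among them Nop56, a core protein of small nucleolar particles, at 1599, 4241 and 3233 (0.39 ± 0.09), and Nop60B, the pseudouridine synthase, at 6753, 17849 and 14410.0 (0.31 ± 0.06). With the WT variance kept in the error, 1 replication, 5 cell-cycle and 2 ribosome biogenesis genes were called. limma on the recovered reads called 12 replication, 12 cell-cycle and 4 ribosome biogenesis genes. Without clone 1 library B it called 7, 7 and 2. Without clone 2 library A it called 8, 9 and 1, without clone 2 library B 10, 5 and 3, and without clone 2 library C 13, 8 and 4.

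**Figure D4:**
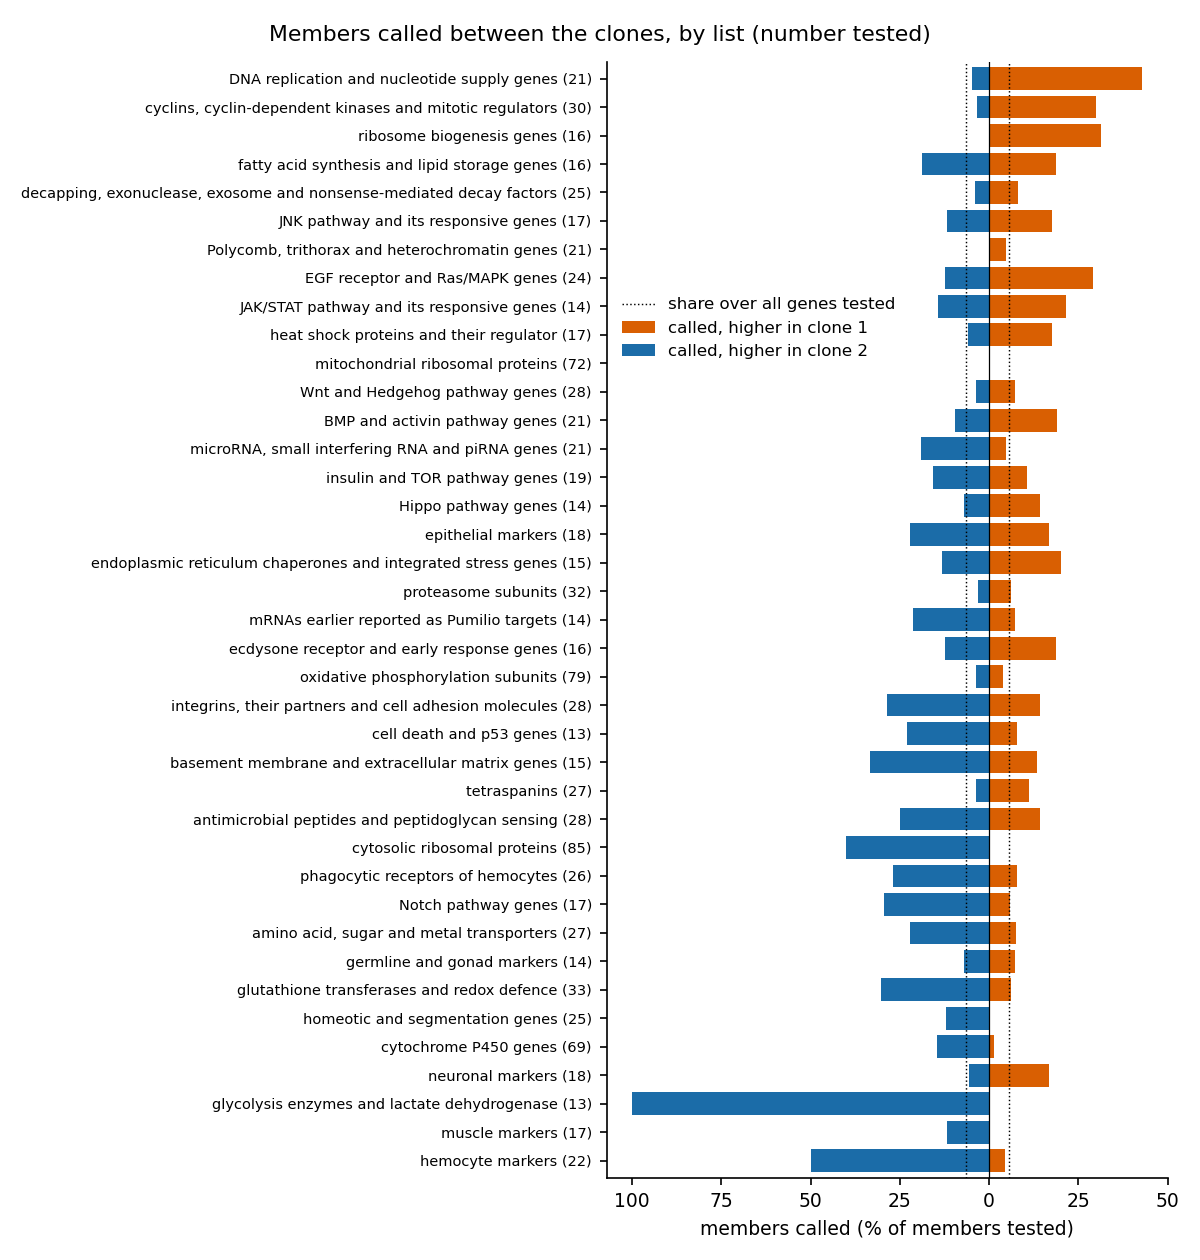
Bars give the percent of tested members of a list called higher in clone 1 (orange, to the right) or in clone 2 (blue, to the left). Only lists with at least 13 members tested are shown (number tested in brackets), ordered by the median log2 difference. Dotted lines mark 5.62% and 6.49%, the shares over all genes tested. Glycolysis reaches 100% on the left, cytosolic ribosomal proteins have no call on the right and mitochondrial ribosomal proteins have none on either side.

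Over the 44 lists, 253 of the 1032 genes tested were called, 97 higher in clone 1 and 156 in clone 2, where 12.1% of all genes tested and 20.4% of those with a mean of at least 50 were called. In the piRNA pathway, which silences transposons, the differences were large for a few members. aub, a Piwi-family protein, held 909, 818 and 941 in WT, 58.6, 39.5 and 67.1 in clone 1 and 346, 306 and 267 in clone 2 (-2.50 ± 0.16, adjusted p = 4.14e-53). AGO3, its partner in the amplification of piRNAs, held 941, 1075 and 1022 in WT, 43.99, 29.7 and 57.5 in clone 1 and 251, 237 and 185 in clone 2 (-2.40 ± 0.17). tej, a Tudor-domain protein, held 197, 179.8 and 209 in WT, 27.99, 18.2 and 19.2 in clone 1 and 205.2, 184 and 179 in clone 2 (-3.09 ± 0.22), with the libraries of clone 2 overlapping those of WT. piwi, with means of 354, 1746 and 1481 in WT, clone 1 and clone 2, was not called between them at 0.24 ± 0.10 (adjusted p = 0.102), and of the 21 small-RNA genes tested 4 were higher in clone 2 and 1 in clone 1.

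Signalling genes went in both directions. Among 24 EGF receptor and Ras/MAPK genes, 7 were higher in clone 1 and 3 in clone 2. The shares called over all genes, 12.1% of those tested and 20.4% at a mean of at least 50, stand beside this count and those of the other pathways. aos, a secreted inhibitor of the receptor, had means of 907, 2243 and 1141 in WT, clone 1 and clone 2 (0.98 ± 0.09, adjusted p = 9.98e-23), and spi, the ligand Spitz, 1942, 2859 and 1909 (0.58 ± 0.07). ths, an FGF ligand, was higher in clone 2 at 591, 476 and 889 (-0.91 ± 0.11). Of 17 Notch pathway genes, 5 were higher in clone 2, led by lz and by neur, a ligand-activating ubiquitin ligase, at 339.9, 285 and 529 (-0.90 ± 0.11). The Notch ligand Ser was the 1 member higher in clone 1, at 21.00, 133 and 70.4 (0.92 ± 0.21). In the Hedgehog pathway, the ligand hh had means of 176, 371 and 176 and was higher in clone 1 (1.08 ± 0.13), whereas its receptor ptc had 5.12, 44.6 and 135 and was higher in clone 2 (-1.60 ± 0.30). Notum, a secreted inhibitor of Wnt proteins, was higher in clone 1 at 2999, 3383 and 1741 (0.96 ± 0.07). Of the 21 BMP and activin genes, the receptor wit and the transducer Mad were higher in clone 1. wit had means of 261, 877 and 479 (0.87 ± 0.09) and Mad 691, 1061 and 767 (0.47 ± 0.08). The ligands dpp and daw were higher in clone 2, daw at 297, 110 and 248 (-1.18 ± 0.14). Of 14 JAK/STAT genes, 3 were higher in clone 1, all under 2-fold, and 2 in clone 2, both at least 2-fold. The latter were Tep1 and et, a negative regulator of the pathway, at means of 154, 8.41 and 21.8 (-1.37 ± 0.38). The ligand upd1 at 953, 1489.9 and 881 and its receptor dome at 1491, 2547 and 1757 were both higher in clone 1 (0.75 ± 0.10 and 0.54 ± 0.08). For JNK, the ligand egr and its receptor wgn were higher in clone 1, wgn at 261, 1075 and 745 (0.53 ± 0.10). The kinase msn was higher in clone 2, at 7888, 4920 and 7697 (-0.65 ± 0.07).

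Of 69 cytochrome P450 genes tested, 10 were higher in clone 2, 7 of them at least 2-fold, and 1 in clone 1. In total 15.9% were called, near the 12.1% over all genes tested. Over all genes tested, however, only 2.55% were at least 2-fold higher in clone 2. Cyp6a17 held 1095, 1146 and 1131 in WT, 277, 279 and 266 in clone 1 and 748, 832 and 815 in clone 2 (-1.54 ± 0.09, adjusted p = 2.24e-62). Of 33 glutathione transferase and redox genes, 10 were higher in clone 2 and 2 in clone 1, the latter led by GstD3 at 1184, 2525 and 1590.2 (0.67 ± 0.08), which has neighbours of related sequence. Men, malic enzyme, had means of 6787, 1895 and 3737 in WT, clone 1 and clone 2 (-0.98 ± 0.06). ImpL2, a secreted binder of insulin-like peptides, had 1886, 1140.2 and 2493 (-1.13 ± 0.07), and crc, the fly ATF4, 4154, 2533 and 4238 (-0.74 ± 0.06). Dronc, the initiator caspase, was higher in clone 1 at 495, 774 and 502 (0.62 ± 0.10) and hid, an activator of cell death, higher in clone 2 at 40.5, 58.3 and 110.1 (-0.94 ± 0.23). Of 28 adhesion genes, 8 were higher in clone 2 and 4 in clone 1. The share called was 42.9% for adhesion and 36.4% for the glutathione transferase and redox list. Over all genes it was 12.1%, and 20.4% at a mean of at least 50. rst, an immunoglobulin adhesion protein, held 139, 137 and 146 in WT, 289, 322 and 279 in clone 1 and 1047, 1023 and 1026 in clone 2 (-1.80 ± 0.10, adjusted p = 2.81e-70), and Tig, the integrin ligand tiggrin, held 895, 1128 and 887 in WT, 19.99, 18.2 and 20.2 in clone 1 and 199.7, 172 and 176 in clone 2 (-3.23 ± 0.22).

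The other lists described here stand beside the 12.1% called over all genes tested and the 20.4% called at a mean of at least 50. Oxidative phosphorylation and proteasome genes lay below both shares, at 7.59% and 9.38% called. Hippo genes (21.4%), neuronal markers (22.2%) and heat shock genes (23.5%) lay near the 20.4%. Only 5 of the neuronal markers and 9 of the heat shock genes had a mean of at least 50. Transporters (29.6%) and lipid genes (37.5%) lay above both shares. Of 79 oxidative phosphorylation genes 3 were higher in each clone, and of 32 proteasome genes 2 were higher in clone 1 and 1 in clone 2. Of 17 heat shock genes, 3 were higher in clone 1, led by Hsp27, a small chaperone, at means of 14403, 17165 and 12632 in WT, clone 1 and clone 2 (0.44 ± 0.08). The co-chaperone gene stv was the 1 higher in clone 2, at 1269, 133 and 207 (-0.65 ± 0.14). Of 27 transporter genes 6 were higher in clone 2, led by Oatp74D, an importer of ecdysone, at 1195, 241 and 551 (-1.21 ± 0.11), and 2 in clone 1. Of 16 lipid genes 3 were higher in each clone, among them bmm, the triglyceride lipase Brummer, higher in clone 1 at 198, 234 and 143 (0.72 ± 0.16). Of 14 Hippo pathway genes 2 were higher in clone 1 and 1 in clone 2, the polarity gene crb, at 496, 26.2 and 62.4 (-1.27 ± 0.22). Of 18 neuronal markers 3 were higher in clone 1, futsch, Gad1 and nrv3, and 1 was higher in clone 2. Gad1, which makes the transmitter GABA, had means of 299.6, 389 and 219 in WT, clone 1 and clone 2 (0.83 ± 0.12). nrv3, a sodium pump subunit, had 60.9, 678 and 446 (0.61 ± 0.13).

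Median log2 differences of genes with a mean of at least 50 lay between -0.01 on X and 0.05 on 3R, and the percent of those genes called lay between 18.0% on X and 27.8% on chromosome 4, which has 54 such genes. Of 121 windows of 1 Mb with at least 10 such genes, 2 had a median beyond 0.1 in size, and of 223 windows of 0.5 Mb, 24 did. Those of 1 Mb were the stretch from 1 to 2 Mb of 2R (10 genes, median -0.23) and that from 22 to 23 Mb of 2L (22 genes, median -0.13). Of called genes in the former, l(2)41Ab is given with the genes highest in clone 2, lncRNA:CR44042 had means of 169, 10.8 and 184 in WT, clone 1 and clone 2, and CG17684 73.03, 9.66 and 24.7 (-1.36 ± 0.38). CG41520 had 3 reads in clone 1 and 23 in clone 2. In the latter, Cht10, a chitinase, had means of 431, 43.1 and 122 (-1.48 ± 0.18) and CG40006 589, 30.04 and 126 (-2.06 ± 0.20). CG6675, with a WT mean of 445.5, had 2 reads in clone 1 and 37 in clone 2, so that both clones were far below WT. lncRNA:CR43765, with a WT mean of 15.2, had 5 and 25 reads in the clones. Some genes at least 2-fold apart lay near each other. Runs of 3 or more such genes in 1 direction numbered 24 and held 94 of the 361 genes. Gaps of at most 100 kb were allowed, with no regard to uncalled genes between the members, so members of a run need not be neighbours. Of the runs, 23 were higher in clone 2 and 1 in clone 1, beside 312 and 49 of the 361 genes. Whether 24 runs are more than the same number of scattered genes would give was not tested.

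The run towards clone 1 lay on 3R and spans CG11951 (29235322 to 29238723), CR31427 (29238830 to 29240308), CG31445 (29240580 to 29244827) and SP1029 (29244961 to 29250451), all on the minus strand of dm6. CG11951 had 2 reads in WT, 331 in clone 1 and 0 in clone 2, and CR31427 had 3, 425 and 0. SP1029 was expressed in all groups, with the values given for it with the genes highest in clone 1. The next of these genes, stg, starts at 29251826 and was higher in clone 1 by 0.37 ± 0.08, and CG45544 beyond it was not called (-0.18 ± 0.70). The stretch of 2L from CG2201 to Tif-IA was chosen after its values were seen. It held 28 tested genes with a mean of at least 50 in at least 1 group. Of these, 15 were higher in clone 2, 0 in clone 1 and 13 were not called. Over all genes with a mean of at least 50 over the 3 groups, 20.4% were called. CG2201 (21614232 to 21624080) had means of 1124, 10.9 and 271 in WT, clone 1 and clone 2 (-4.60 ± 0.27), and nolo, a matrix protein gene (21684106 to 21729051), 3621, 5.10 and 52.1 (-3.30 ± 0.36). Between them lay Df31, a chromatin protein (-0.20 ± 0.08, not called), and eEF2, a translation factor (-0.40 ± 0.06). Large and small differences thus lay side by side in this stretch. On chromosome 4, 7 of 55 genes with a mean of at least 50 in at least 1 group were higher in clone 1 and 8 in clone 2. Of the 54 with a mean of at least 50 over the 3 groups, 27.8% were called, beside the 20.4% over all such genes. At 2-fold or more, 7 of the 54 were higher in clone 2 and 0 in clone 1. Over all genes tested, whatever their mean, 2.55% were at least 2-fold higher in clone 2 and 0.4% in clone 1. The 7 included Pur-alpha, a nucleic-acid binding protein, at 965, 76.5 and 351 (-2.20 ± 0.15), and unc-13, a vesicle-priming factor, with 6179, 7633 and 6029 in WT, 1136, 1068 and 1178 in clone 1 and 5682, 5352 and 5251 in clone 2 (-2.27 ± 0.09, adjusted p = 1.87e-147). Of the others, asRNA:CR44029 (-2.03 ± 0.14) and CR43361 (-2.19 ± 0.17) lie within the span of unc-13, so the 7 may not be separate differences. The Cyp6a cluster of 2R, with Cyp6a22, Cyp6a17, Cyp6a23 and Cyp6a20, was another run, at -1.51 ± 0.20, -1.54 ± 0.09, -1.40 ± 0.18 and -1.04 ± 0.16. Its members are related in sequence, and the sources used here do not say whether counting used strand, so neighbouring, overlapping and antisense genes may share reads.

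**Figure D5:**
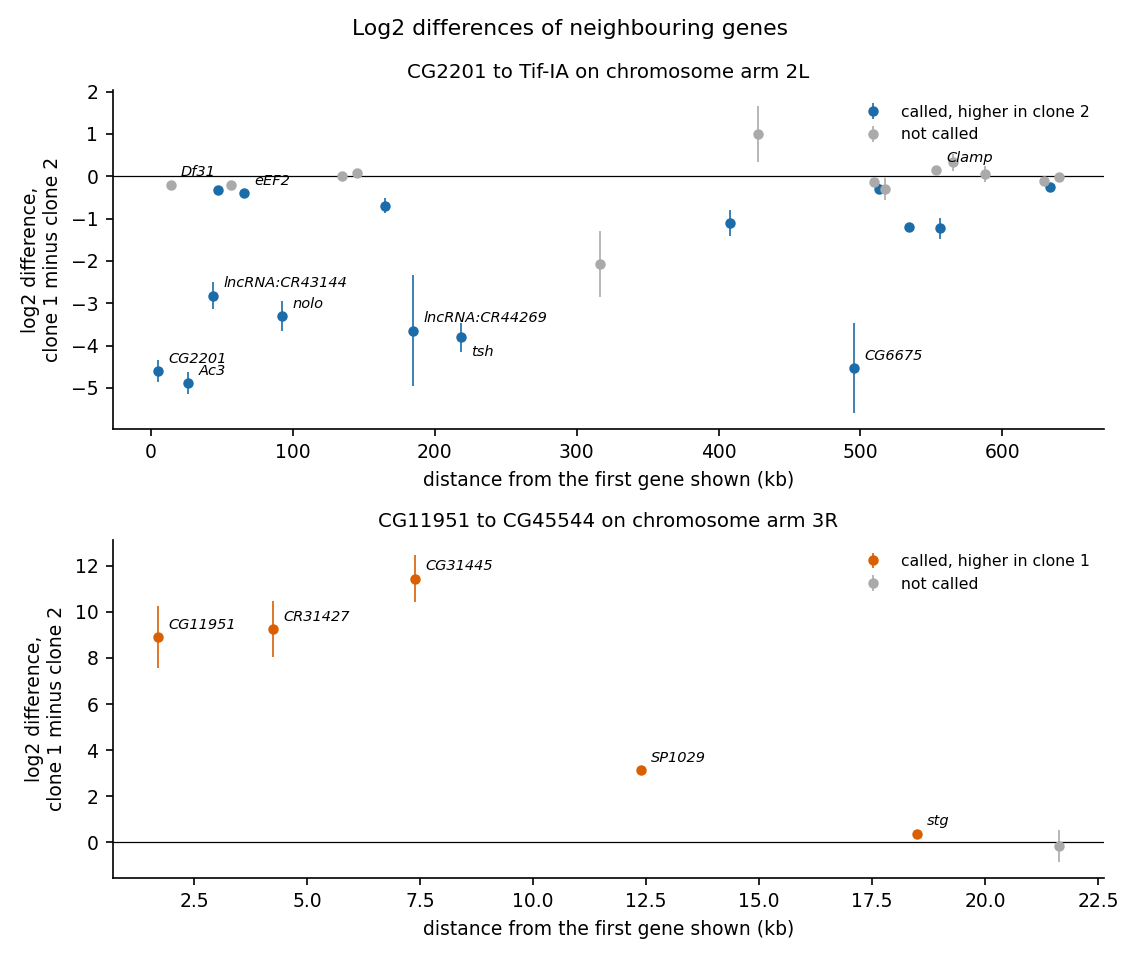
Points are log2 differences of clone 1 minus clone 2 with their standard errors, plotted at the gene's middle as distance in kb from the first gene shown, for the 28 genes of the stretch on 2L (top) and the 6 genes around CG31445 on 3R (bottom). On 2L, called genes with large differences lie between genes near 0, and on 3R CG11951, CR31427 and CG31445 lie highest, followed by SP1029 and, near 0, stg.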

How the data were processed

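RNA of 3 WT, 3 clone 1 and 3 clone 2 samples was analysed. Per the submitters' processing notes, fastp 0.14.1, HISAT2 2.1.0, UMI-tools 1.0.1, featureCounts and DESeq2 1.23.110 were used with dm6; their settings, the use of strand and the handling of reads that fit several genes are not given in the sources used here. The authors deposited, per gene, the mean normalized count of each group (a signal, no counts per library), the log2 fold change of each clone against WT with its standard error, and p-values with adjusted p-values. From the deposited values, 7 lines with no gene (0.0669% of normalized counts) were left out, and 6 names altered to dates or numbers were read from gene IDs. Of the 17555 genes, 17477 matched the dm6 annotation.

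The deposited table lacks counts, so a count model was not the main test. The log2 fold change of clone 2 was subtracted from that of clone 1 and tested with a two-sided Wald test, Benjamini-Hochberg adjusted over 12248 genes. The variance of WT, which both fold changes share, was taken out of the error, except for 1743 genes with a WT mean of 0, where nothing was taken out. The standard error therefore rests on the dispersion that the authors' fit gave each gene. Each group mean was resolved into whole reads of 3 libraries. Up to a mean of 10000 each had exactly 1 solution, 121 WT, 135 clone 1 and 128 clone 2 genes above it were not resolved, and size factors recomputed from the reads departed by at most 0.287%. limma 3.58.1 (R 4.3.3, trend, genes with at least 10 reads in at least 3 libraries) on these reads was an alternative, also leaving out each library. Its input was the log2 of reads plus 0.5 divided by the size factor of the library. Other steps used Python 3.11.15, pandas 2.3.3, NumPy 2.4.6, SciPy 1.17.1, Numba 0.67.0 and Matplotlib 3.10.9. The Wald test and limma were also run on simulated reads, with genes of WT mean 0 left out. There the Wald errors were built from the dispersions used to simulate the reads. The simulation therefore tests neither the estimation of dispersions nor the genes without WT reads.

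The genes named by rule were pum, Not1 and Pop2, the 12 genes with a symbol, a mean of at least 50 in the higher clone and the largest difference in each direction, of each list up to 4 called members by smallest p, the 4 called genes with the largest difference in each named window, the switched genes and up to 4 numbered genes. One gene named by this rule is not reported here. Other named genes were chosen after their values were seen. The comparison and the lists were chosen with earlier results of these data known. Since nothing in the sources used here ties samples to separate cultures, p-values measure the spread between these samples, which may be technical. Standard errors and read counts cover no difference between isolates.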

Additional observations from a re-analysis of the deposited data

Results flagged for a closer look

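For 11 genes the clones lay on opposite sides of WT, each by at least 2-fold and each with an adjusted p below 0.05 against WT in the authors' deposited table, and the difference between the clones was called by the two-sided Wald test. Of these, 9 were higher in clone 2. They were lz with a log2 difference of -7.76 ± 0.42, peb with -6.30 ± 0.43, dpp with -5.08 ± 0.49, toc with -4.19 ± 0.23, Prosap with -3.36 ± 0.16, which encodes a synaptic scaffold protein, ASPP with -3.45 ± 0.34, CG40485 with -5.01 ± 0.75, lncRNA:CR43144 with -2.82 ± 0.33 and Or19b with -5.44 ± 1.26. Or19b, an odorant receptor gene, had 2 reads in clone 1, so its value is fitted and no bound. The other two were higher in clone 1. CG31445 had a fitted value of 11.43 ± 1.03 with 2 reads in clone 2, and CG4461 had 6.49 ± 1.32 with 0 reads in clone 2 and a mean of 16.7 in clone 1. Prosap had means of 171, 46.7 and 476 in WT, clone 1 and clone 2, and ASPP had 31.3, 9.25 and 106. For some of the others the WT level was itself low, so the lower side rests on few reads. lz had means of 10.4 in WT and 4.02 in clone 1, and dpp 9.47 and 3.51. The WT means of CG31445, Or19b and CG4461 were 8.60, 4.62 and 2.80.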

How the results depend on the processing

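The number of genes called was 1483 and moved to 686 with the shared WT variance kept in the error, and that of list genes from 253 to 129. Over the other alternatives the number called lay between 1057 (adjusted p below 0.01) and 1847 (limma on recovered reads), and limma without 1 library called 1379 to 1802 genes and 208 to 269 list genes. The 361 genes called at least 2-fold became 158 among genes with a mean of at least 50 over the clones, 581 at 1.5-fold and 167 at 4-fold, and limma without 1 library called 379 to 431. Windows with a median beyond 0.1 numbered 2 at 1 Mb, 1 at 2 Mb and 24 at 0.5 Mb. The share of called genes higher in clone 1 was 46.4%, 39.4% with the WT variance kept, 38.4% with the median of all genes set to 0 (a shift of 0.03) and 53.7% among genes with a mean of at least 50 over the clones. An error raised to the counting error, chosen after seeing the data, gave 1481 and 360 genes, with the calls of hb and lncRNA:CR44269 lost. For 34 named genes, 427 of 428 repeats kept direction and call, and 1, that of otk with the WT variance kept (adjusted p = 0.105 by the Wald test), lost the call. The hemocyte median of -0.84 was -0.36 from ratios of means with a pseudocount of 10. No paired analysis was possible because the deposited columns carry no replicate numbers. The edgeR and DESeq2 alternatives were not run.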
